A study of Danio rerio with 6 samples.

Results

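The nuclear genes of the mitochondrial respiratory chain were compared between EGFP-positive and EGFP-negative cells of *drl:EGFP* zebrafish embryos. They were taken by symbol: genes whose name in the files begins with *nduf*, *sdha* to *sdhd*, *uqcr*, *cyc1*, *cycs*, *cox4* to *cox8* or *atp5*. In all, 93 of the 25965 named genes carried such a symbol, on 149 of the 75212 transcript clusters, the probe sets of the array. Of these, 36 were subunits of complex I, 5 of complex II, 9 of complex III, 2 were cytochrome c genes, 16 belonged to complex IV and 16 to complex V, and 9 were assembly factors with *ndufaf* or *sdhaf* names. Where a gene had several clusters, the one with the highest mean over all 6 arrays represented it. This applied to 39 genes, while 54 genes had 1 cluster.

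The respiratory chain sits in the inner mitochondrial membrane. Complexes I and II pass electrons from NADH and succinate to ubiquinone, complex III passes them on to cytochrome c, and complex IV hands them to oxygen, while complex V, the ATP synthase, uses the proton gradient that this builds. Most subunits are encoded in the nucleus and imported, and a few core subunits are encoded by mitochondrial DNA. Embryos carry maternal mitochondria and maternal messenger RNA, and some subunits exist as paired genes or as isoforms that differ between tissues.

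All embryos were homozygous for the *drl:EGFP* transgene, in which a regulatory element of *drl* (draculin, a zinc-finger gene) drives EGFP, the enhanced green fluorescent protein. Each sample is RNA of living cells sorted by EGFP from many pooled embryos of the 2 somite stage, and the 3 collections of embryos came from separate matings of 1 group of fish. Both fractions thus carried the transgene and were untreated, and the negative fraction is all sorted cells without EGFP rather than 1 tissue. Each fraction gave 3 samples, each on its own one-colour Affymetrix ZebGene array. The replicates are separate collections of 1 fish pool, and p-values measure the spread between them.

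Values are log2 signals as deposited. A difference of 1 is a 2-fold ratio, levels of different clusters are not compared with each other since probes differ in brightness, and errors after ± are SD of 3 arrays. A gene was called higher or lower in EGFP-positive cells at an adjusted p under 0.09 in limma, with Benjamini-Hochberg adjustment over all clusters. The exact permutation test of 3 arrays against 3 cannot give a two-sided p below 0.1.

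The array medians ran from 5.02 to 5.10. In the marker lists, 11 of 11 measured lateral plate mesoderm markers and 7 of 7 endoderm and hatching gland markers were higher in EGFP-positive cells. By contrast, 8 of 11 neural plate and 9 of 12 epidermis and enveloping layer markers were lower. Over all named genes 4.12% were higher and 3.49% lower. The lateral plate list includes *drl* itself (3.64). Its regulatory element drives the EGFP used for the sort, so its rise is no independent support. The lists were chosen with earlier results of these data known. Of 9 paraxial mesoderm and notochord markers, 2 were higher and 2 lower, and of 9 yolk syncytial layer markers only *ttr* was called, as higher (0.38, SE 0.09, limma adjusted p = 0.079), a call lost when any array other than the third EGFP-positive one was left out (limma adjusted p of 0.153 to 0.241). The EGFP-positive fraction therefore held more RNA of lateral plate and endoderm genes, and the EGFP-negative fraction more of neural and epidermal genes. In such sorted pools, fewer cells of a type and less RNA per cell cannot be told apart.

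Among the 93 genes, 1 was called higher in EGFP-positive cells, which is 1.08%, beside 4.12% of all named genes and 2.96% of all clusters. None was called lower, beside 3.49% of named genes and 1.84% of clusters. By limma's unadjusted p under 0.05 there were 2 higher and 7 lower. In the same terms, 9.67% of named genes were higher and 8.88% lower. These counts were not stable: with the replicate number as a block 3 were higher and 3 lower, after a further quantile normalization 18 were lower, and with 1 array left out 2 to 4 were higher and 2 to 10 lower. The 3 EGFP-positive arrays lay wholly above the 3 EGFP-negative arrays for 2 genes (2.15%, beside 12.9% of named genes) and wholly below for 10 (10.8%, beside 12.6%). The gene called was *cox4i2*, an isoform of subunit 4 of cytochrome c oxidase.

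The other 92 genes differed by between −0.39 and 0.65, and 88 of them, or 95.7%, by less than 0.3 in either direction. With *cox4i2* counted, the share was 94.6% of the 93 genes. A difference under 0.3 was also seen for 83.3% of all named genes. It was seen for 78.6% of the 17553 named genes with a mean above the median level of all clusters. The median difference of the 93 genes was −0.051, against −0.0048 for all named genes and 0.017 for all clusters. Of the 93 genes, 67 lay below 0, beside 13264 of the 25965 named genes and 34339 of the 75212 clusters. The median level over the 93 genes was 8.85, 8.58 and 8.72 in EGFP-negative and 8.54, 8.80 and 8.78 in EGFP-positive arrays, which overlap. The 95% interval of the difference lay within a 2-fold change in both directions for 91 genes and within 1.5-fold for 87. These are intervals of single genes, not adjusted over the 93, and no share over all named genes stands beside these counts. The 6 genes whose interval reached beyond 1.5-fold were *ndufv3*, *ndufs4*, *cox4i2*, *cox6b1*, *atp5d* and *ndufaf5*.

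**Figure D1:**
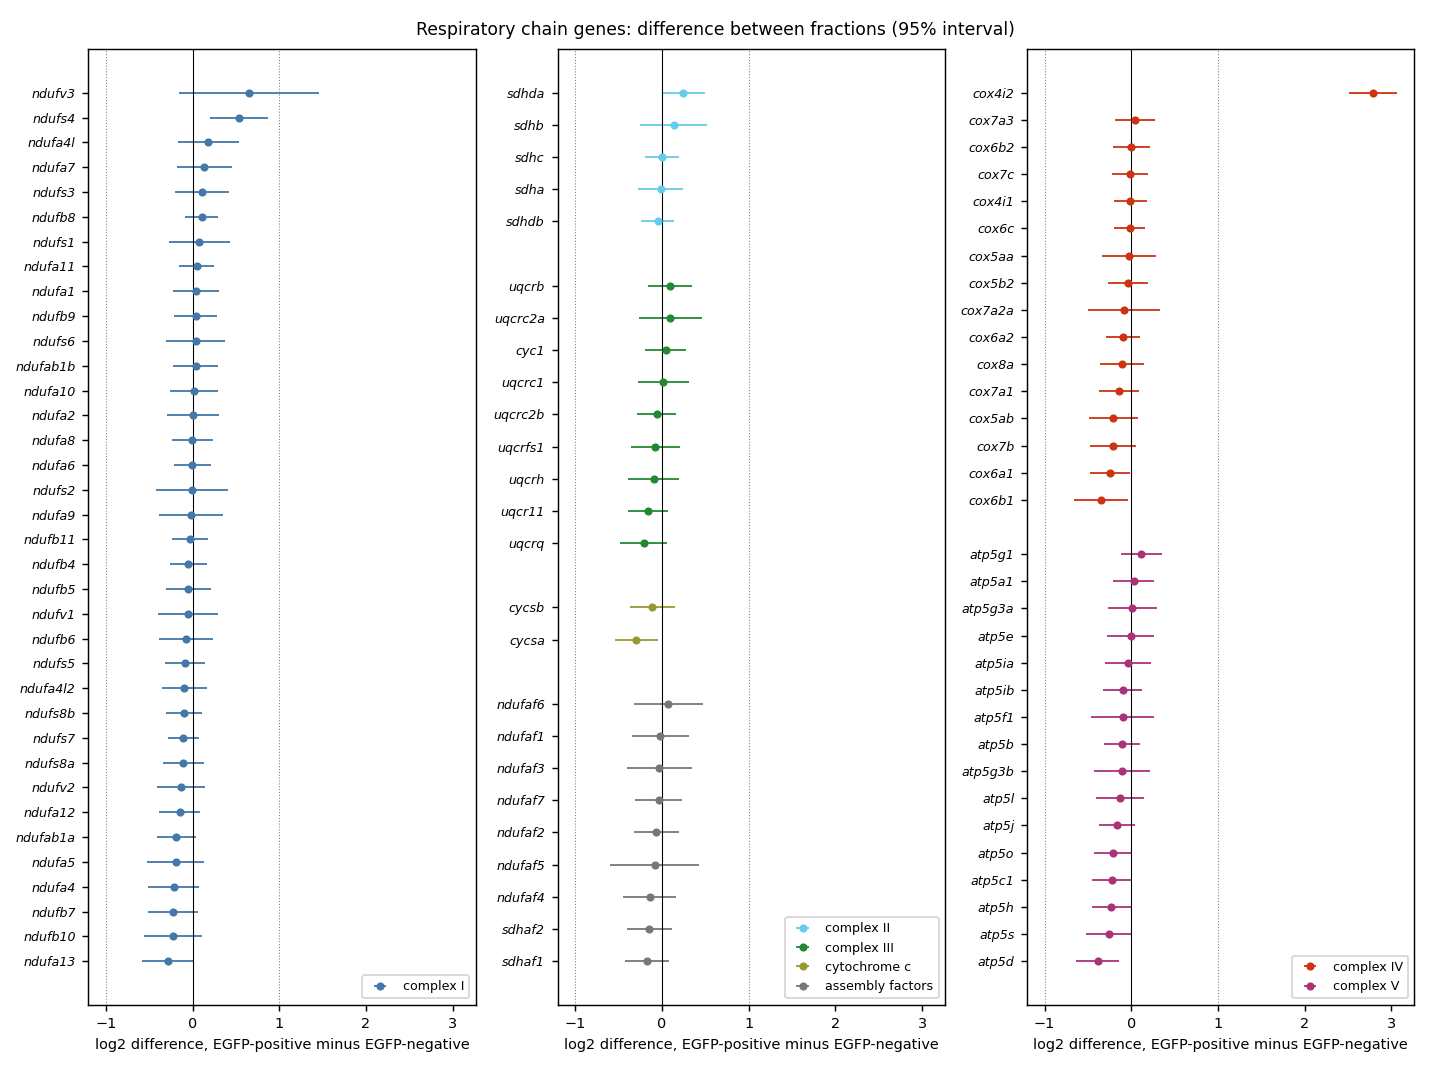
Difference in log2 signal between EGFP-positive and EGFP-negative cells for each of the 93 genes, with its 95% interval from limma (3 arrays a fraction), grouped by complex. Dotted lines mark a 2-fold change. *cox4i2* stands at 2.79, and the other 92 genes lie between −0.39 and 0.65.

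**Figure D2:**
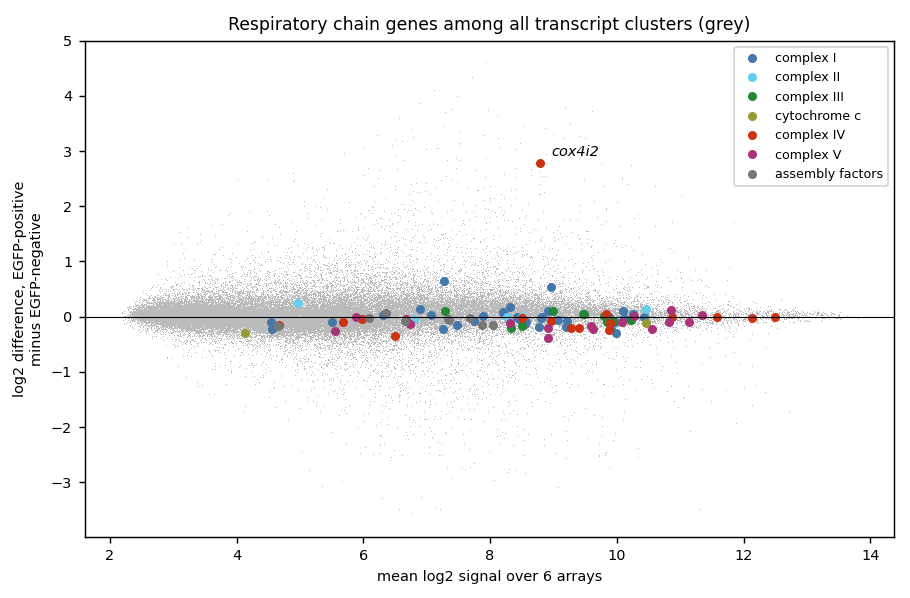
Log2 difference between fractions against mean log2 signal over 6 arrays, for all transcript clusters (grey) and the 93 respiratory chain genes (coloured by complex). The genes lie close to 0 apart from *cox4i2* at 2.79.

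Subunit 4 of complex IV is a subunit through which ATP and ADP are known to act on the enzyme, though not the only one. It has an isoform 1 found in most tissues and an isoform 2 that in mammals is most abundant in lung and is induced at low oxygen. *cox4i2* read 7.61, 7.32 and 7.26 in the EGFP-negative arrays and 10.25, 10.21 and 10.09 in the EGFP-positive arrays. The spread within each fraction was small, and the fractions lay far apart, at 7.39 ± 0.19 and 10.18 ± 0.08. The difference was 2.79 (SE 0.12, 95% interval 2.52 to 3.06, limma adjusted p = 0.000181), a ratio of 6.91, and ranked 36 of 25965 named genes from the highest. The gene had 1 cluster of 18 probes, on the forward strand at chr23:19232938-19239698 of Zv9.

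*cox4i1*, the isoform 1 gene, read 12.48, 12.51 and 12.53 in EGFP-negative and 12.42, 12.54 and 12.51 in EGFP-positive cells. It thus differed by −0.01 (95% interval −0.20 to 0.18), and the fractions overlapped. Within each array the log2 ratio of *cox4i2* to *cox4i1* was −4.88, −5.18 and −5.28 in the negative fraction and −2.18, −2.33 and −2.43 in the positive fraction, a change of 2.80 (exact permutation p = 0.1). The change in the measured ratio was therefore carried by *cox4i2*, with the isoform 1 cluster in the same place in both fractions. The isoform 1 values lie in the upper part of the array range, whose highest value was 13.83. Whether a difference would show in full at that brightness was not tested.

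Markers of several cell types moved with *cox4i2*. The summed linear signal of the 11 lateral plate mesoderm markers, *drl* included, was 783 to 1173 in EGFP-negative and 10194 to 14003 in EGFP-positive arrays. That of the 7 endoderm and hatching gland markers was 747 to 1131 and 5078 to 6430. The 11 neural plate markers summed to 9356 to 10495 in EGFP-negative and 2791 to 4048 in EGFP-positive arrays, and the 12 epidermis and enveloping layer markers to 14902 to 19367 and 5559 to 6979. Of these markers only *he1a*, a hatching gland protease, lay below the array median in every array of a fraction, the negative one. The part of these cell types in the *cox4i2* difference was not tested.

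The remaining 15 genes of complex IV were not called, with differences from −0.35 to 0.04. The largest of these in size was that of *cox6b1*, a subunit that faces the intermembrane space, which read 6.60, 6.79 and 6.62 in EGFP-negative and 6.06, 6.48 and 6.43 in EGFP-positive cells. These do not overlap, but the difference of −0.35 (SE 0.13) had a limma adjusted p of 0.289. Its paralogue *cox6b2* differed by −0.00. *cox6a1* read 10.03, 9.87 and 10.11 against 9.67, 9.76 and 9.84, without overlap, and its difference of −0.25 had a limma adjusted p of 0.305. *cox6a2*, whose mammalian counterpart is the heart and muscle isoform, differed by −0.10.

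Of the further subunit 7 isoforms, *cox7a1*, the heart and muscle isoform in mammals, read 4.53 to 4.89 over all arrays and was not above the array median in all 6 arrays. *cox7a2a* read 8.64 to 9.34 with a difference of −0.09. *cox7a3*, now named *cox7a2l* and known in mammals for its part in joining complexes III and IV, differed by 0.04. The fractions overlapped for all 3 of these genes. The median difference of complex IV with *cox4i2* included was −0.063, with 14 of 16 genes below 0, beside 13264 of the 25965 named genes.

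**Figure D3:**
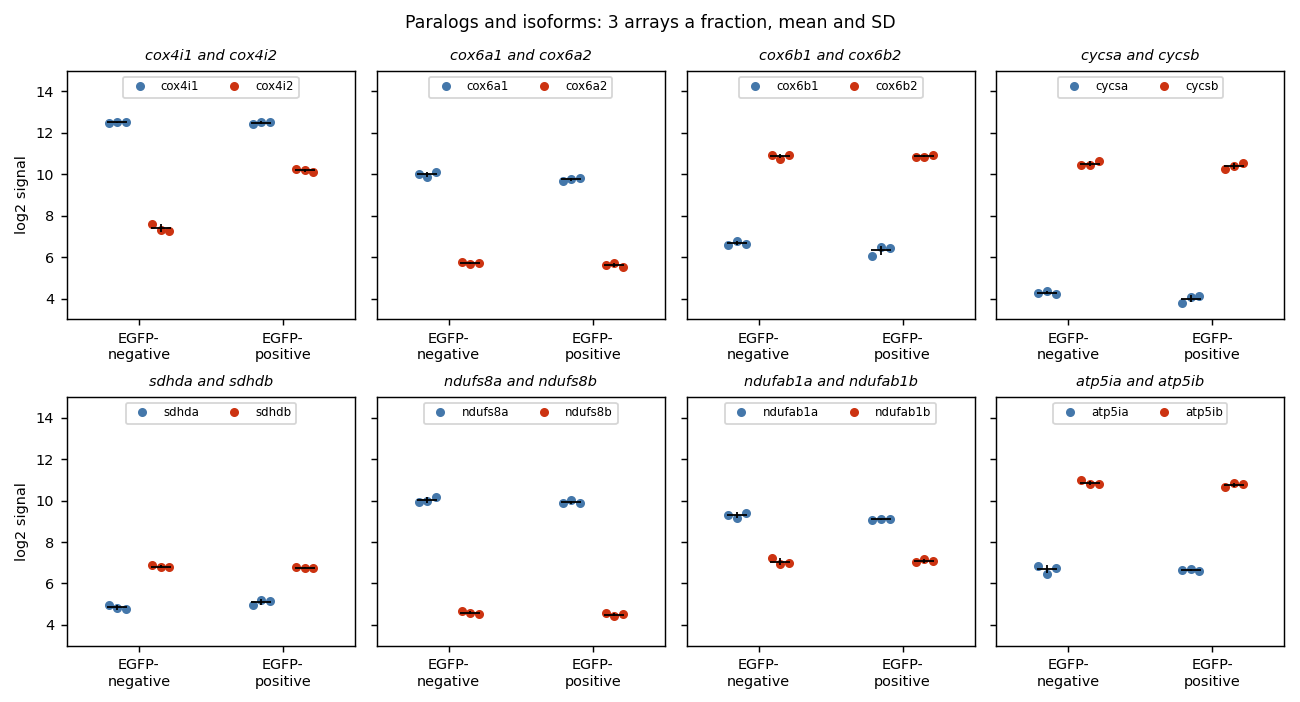
Log2 signal of 8 pairs of paralogues or isoforms in each array, with the mean (bar) and SD (3 arrays a fraction). *cox4i2* lies at 7.26 to 7.61 in EGFP-negative and 10.09 to 10.25 in EGFP-positive arrays. The heights of 2 genes in a panel are not comparable, since they come from different probes.

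The within-array log2 ratio was also followed for 12 other pairs of paralogues or isoforms, and it overlapped between the fractions for 10 of them. The ratio of *ndufab1b* to *ndufab1a*, genes of the mitochondrial acyl carrier protein, which is also a complex I subunit, was −2.07, −2.19 and −2.43 in EGFP-negative and −2.06, −1.93 and −2.05 in EGFP-positive arrays. The ratio of *sdhdb* to *sdhda*, genes of a membrane anchor of complex II, was 1.91, 1.97 and 2.02 against 1.85, 1.56 and 1.59. Neither pair overlapped between fractions, with changes of 0.22 and −0.29, each far smaller than that of subunit 4 and each with an exact permutation p of 0.1, the smallest possible. With adjustment over the 13 ratios none could pass, and how far probes of a gene also bind its paralogue is not given in the sources used here.

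Complex I, the NADH dehydrogenase, gave 36 genes, none called, with a median difference of −0.023. In 22 of them the difference lay below 0, beside 13264 of the 25965 named genes. The 8 core subunits, which carry the flavin and the iron-sulphur clusters, had a median of −0.074 and a range from −0.13 to 0.11. The 28 accessory subunits had a median of −0.012 and a range from −0.29 to 0.65. The accessory subunits thus held both ends of the complex I range.

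The highest complex I difference was that of *ndufv3*, an accessory subunit of the NADH-binding arm. Its cluster on chromosome 9 read 6.38, 7.68 and 6.78 in EGFP-negative and 7.33, 8.02 and 7.44 in EGFP-positive cells, so that the second EGFP-negative array lay within the positive range. The difference of 0.65 (SE 0.34) had a limma adjusted p of 0.455. A second, unplaced cluster of 31 probes gave 0.40 with a limma adjusted p of 0.144, without overlap between fractions.

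*ndufs4*, an accessory subunit needed in mammals for a stable and active complex I, read 8.88, 8.48 and 8.74 in EGFP-negative and 9.01, 9.36 and 9.34 in EGFP-positive cells. It was chosen for mention after its values were seen, as the only gene besides *cox4i2* with all positive arrays above all negative ones. The difference of 0.54 (SE 0.14) had a limma adjusted p of 0.122, the lowest of the 92 genes that were not called. It was called when dim clusters were left out (limma adjusted p = 0.0779) and when only the clusters with a symbol were fitted (0.0386).

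At the lower end, *ndufa13*, also known as a cell death regulator in mammals, read 10.06, 10.02 and 10.30 in EGFP-negative and 10.04, 9.75 and 9.73 in EGFP-positive cells, which overlap. Its difference was −0.29 (SE 0.12, limma adjusted p = 0.352). Of the 36 genes of this complex, only *ndufs7* and *ndufab1a* lay wholly below the negative arrays, by −0.10 and −0.19. Over all named genes the share wholly below was 12.6%. *ndufs8a*, a core iron-sulphur subunit, differed by −0.10, as did its paralogue *ndufs8b*, which read 4.42 to 4.68 and was not above the array median in all arrays. The *ndufa4* genes, counted here by their symbol although the mammalian protein is found in complex IV, differed by 0.18 for *ndufa4l* (now *ndufa4a*), −0.22 for *ndufa4* (now *ndufa4b*) and −0.09 for *ndufa4l2*. None of the 3 was called.

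Complex II, the succinate dehydrogenase, had 5 genes with a median difference of −0.0030. Its flavoprotein *sdha* differed by −0.01 and the iron-sulphur subunit *sdhb* by 0.14, both with overlapping fractions. *sdhda*, a dim cluster, read 4.98, 4.83 and 4.76 in EGFP-negative and 4.95, 5.18 and 5.16 in EGFP-positive cells, a difference of 0.24 (SE 0.11, limma adjusted p = 0.352). *sdhdb* read 6.75 to 6.88 over all 6 arrays, with a difference of −0.05. The table of names used here lists the symbols of this pair as synonyms, so that which current gene each cluster measures is not settled.

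Complex III, the cytochrome bc1 complex, had 9 nuclear genes with a median difference of −0.062, and in none of them were the fractions apart. Over all named genes, 12.9% lay wholly above and 12.6% wholly below. The catalytic subunits were close to 0, with 0.04 for *cyc1* (cytochrome c1) and −0.08 for *uqcrfs1* (the Rieske iron-sulphur protein). The core protein pair gave 0.09 for *uqcrc2a* and −0.06 for *uqcrc2b*. The highest and lowest were small subunits: *uqcrb* at 0.09 and *uqcrq* at −0.21, the latter with 8.46, 8.33 and 8.50 in EGFP-negative and 8.02, 8.30 and 8.34 in EGFP-positive cells. The third positive array of *uqcrq* overlapped the second negative one.

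Cytochrome c, the soluble carrier between complexes III and IV and a trigger of apoptosis when released, had 2 genes. *cycsb* read 10.47, 10.42 and 10.65 in EGFP-negative and 10.26, 10.41 and 10.54 in EGFP-positive cells, a difference of −0.11 with overlap. *cycsa* was dim, at 4.25, 4.36 and 4.24 against 3.80, 4.06 and 4.10, and lay below in every positive array, but its difference of −0.29 (SE 0.11) had a limma adjusted p of 0.261. All of its values lay under the array medians.

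Complex V, the ATP synthase, had the lowest median of the 5 complexes, at −0.106. Of its 16 genes, 13 lay below 0, beside 13264 of the 25965 named genes. The median level over its genes was 9.76, 9.61 and 9.76 in EGFP-negative and 9.42, 9.54 and 9.57 in EGFP-positive arrays, so that the fractions did not overlap at the median. In 5 of its 16 genes all positive arrays lay below all negative ones, namely *atp5d*, *atp5s*, *atp5h*, *atp5o* and *atp5j*, beside 12.6% of named genes. None of the 16 was called by limma, and 4 were lower at an unadjusted p under 0.05, beside 8.88% of named genes. The complex was not tested as a group. Its median moved by less than 0.083, the SD of its array medians within fractions, under every alternative tried. That limit is close in size to the median of −0.106 itself, so the check says little about how stable the median is.

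*atp5d* (now *atp5f1d*) encodes the delta subunit of the central stalk, which turns within the F1 head. It read 9.18, 9.03 and 9.10 in EGFP-negative and 8.54, 8.80 and 8.80 in EGFP-positive cells. The fractions were apart, and the difference of −0.39 (SE 0.10, 95% interval −0.63 to −0.14) was the lowest of all 93 genes, but its limma adjusted p was 0.127. Its second cluster, on the opposite strand, differed by −0.14. *atp5d* was called as lower after a further quantile normalization (−0.48, limma adjusted p = 0.0633), without dim clusters (0.0867) and in a fit of only the clusters with a symbol (0.0521).

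The alpha and beta subunits of the F1 head were nearer to 0 than *atp5d*, with 0.03 for *atp5a1* (alpha) and −0.11 for *atp5b* (beta). *atp5b* read 11.08 to 11.27 in EGFP-negative and 11.03 to 11.13 in EGFP-positive arrays, which overlap. The peripheral stalk genes *atp5h*, *atp5o* and *atp5j* differed by −0.23, −0.21 and −0.16, and *atp5f1*, the b subunit of the same stalk, by −0.10 with overlap. *atp5s*, now *dmac2l* and counted in complex V by its older symbol alone, differed by −0.26. The ring of c subunits, through which protons pass, gave the highest value of the complex, 0.12 for *atp5g1* (now *atp5mc1*), with 0.01 for *atp5g3a* and −0.11 for *atp5g3b*. *atp5ia* and *atp5ib*, genes of subunit e, differed by −0.04 and −0.10.

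**Figure D4:**
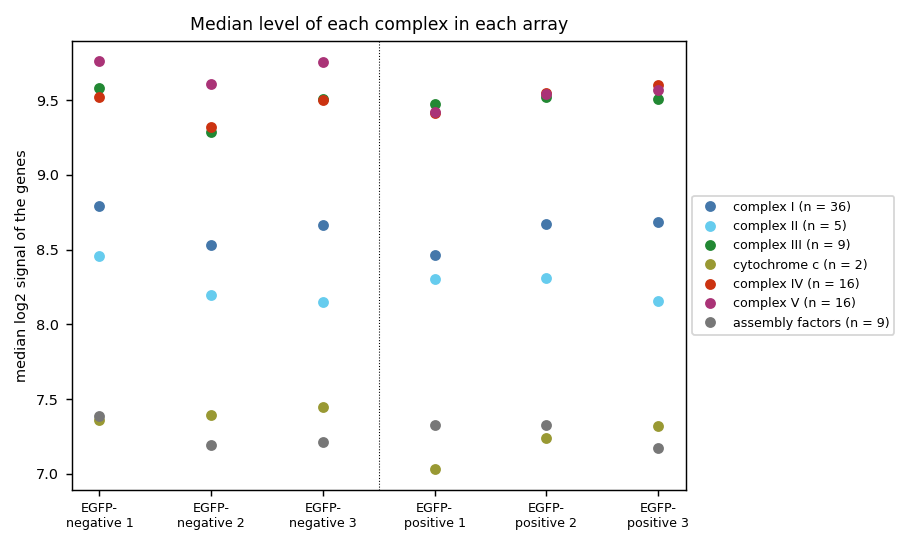
Median log2 signal over the genes of each complex in each of the 6 arrays. Complex V lies at 9.61 to 9.76 in EGFP-negative and 9.42 to 9.57 in EGFP-positive arrays. Colours are read along a row of arrays, since levels of different genes are not comparable.

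The 9 assembly factors with *ndufaf* and *sdhaf* names, which build complexes I and II but are not part of them, had a median difference of −0.065, and none was called. They ran from −0.17 for *sdhaf1* to 0.07 for *ndufaf6*. *ndufaf6* read 6.27, 6.25 and 6.45 against 6.43, 6.05 and 6.71, so that its positive arrays fell on both sides of the negative ones. *sdhaf1* was not above the array median in all arrays.

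The 56 clusters that did not represent their gene gave no further call. They ran from −0.29 to 0.48, the lowest limma adjusted p was 0.144, and 5 had an unadjusted p under 0.05, which is 8.93%, beside 14.6% of all clusters. Of them, 28 lay on the strand opposite to the representing cluster, with a median difference of 0.084. In addition, 10 genes of the chain or its assembly stand in the files under other symbols and were not among the 93. They ran from −0.31 for *acn9* (now *sdhaf3*) to 0.22 for *zgc:73329* (now *ndufb2*), and none was called.

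The subunits encoded by mitochondrial DNA were measured by 10 clusters on the mitochondrial chromosome, 9 of which carry the symbol of a respiratory gene. None was called, and the 9 had a median difference of 0.016. *COX1*, the catalytic core of complex IV, read 13.17 to 13.22 in EGFP-negative and 13.17 to 13.24 in EGFP-positive arrays, near the upper end of the array range, 13.83. *CYTB*, the core of complex III, differed by 0.07. *ND6*, the complex I gene on the opposite strand, read 10.05, 10.28 and 10.33 against 10.34, 10.44 and 10.48. It was the only one of the 9 whose fractions were apart, with a difference of 0.20 and a limma adjusted p of 0.442. Among all named genes, 12.9% had every positive array above every negative one.

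Genes that surround the chain were described as lists chosen by function. Over all named genes 4.12% were called higher and 3.49% lower, and the counts of each list stand beside these shares. Of 27 further assembly factors none was called, and the median was −0.017, from 0.21 for *surf1* to −0.35 for *ttc19*. *ttc19*, an assembly factor of complex III, read 6.52, 6.36 and 6.49 in EGFP-negative and 6.01, 6.10 and 6.22 in EGFP-positive cells, without overlap (limma adjusted p = 0.127). It was called as lower without dim clusters (0.089) and in a fit of only the clusters with a symbol (0.0577). *cox17*, the copper chaperone of complex IV, differed by −0.31 (limma adjusted p = 0.255). Of 16 genes of ubiquinone synthesis and of other enzymes that feed it, none was called, with a median of −0.0053 and a range from −0.32 for *pdss1* to 0.21 for *coq9*. *pdss1*, which makes the side chain of ubiquinone, was called as lower in a fit of only the clusters with a symbol (limma adjusted p = 0.0767). Of 15 genes of ATP synthase inhibitors, of nucleotide, phosphate and porin carriers and of uncoupling proteins, none was called. Their median was −0.066, with a range from −0.23 for *slc25a4* to 0.23 for *slc25a14*, an uncoupling protein gene.

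Of 20 regulators of mitochondrial transcription, genome maintenance and biogenesis, 1 was called as lower and none as higher, beside 3.49% and 4.12% of named genes. A single call among 20 genes is not read as a result about the list. The gene called was *ppargc1a*, the transcriptional coactivator PGC-1alpha, which in mammals drives the making of mitochondria together with nuclear respiratory factors. It read 7.19, 6.97 and 6.67 in EGFP-negative and 5.98, 6.06 and 5.997 in EGFP-positive cells. The fractions were apart by more than the spread within either, and the gene fell by 0.93 (SE 0.14, limma adjusted p = 0.0147). The median of the list was 0.074, and 15 of its 20 genes lay above 0, beside 12701 of the 25965 named genes. *nrf1*, a nuclear respiratory factor, differed by 0.24 and *polg*, the mitochondrial DNA polymerase, by 0.26, neither called. *esrrga*, an oestrogen-related receptor, differed by −0.37 (limma adjusted p = 0.378).

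Of 48 mitochondrial ribosomal protein genes 1 was called as higher and none as lower, beside 4.12% and 3.49% of named genes. The gene called was *mrps30*, which read 7.17, 6.88 and 6.83 in EGFP-negative and 7.48, 7.46 and 7.58 in EGFP-positive cells. It rose by 0.55 (SE 0.11, limma adjusted p = 0.0525), but the call was lost when any array other than the first EGFP-negative one was left out, with a limma adjusted p of 0.139 to 0.164. The median of the 48 genes was 0.022, and *mrps14* gave the lowest difference, −0.46 (limma adjusted p = 0.14). In a fit of only the clusters with a symbol, *mrps14* was called as lower (0.0514) and *mrps7*, at 0.36, as higher (0.0798). *mrps14* was also called without the second EGFP-negative array (0.0839). Of 21 genes of mitochondrial protein import none was called, with a median of −0.036. *timmdc1*, an assembly factor of complex I that is also in the list of assembly factors, differed by −0.31. It was called in a fit of only the clusters with a symbol (limma adjusted p = 0.0857). Of 75 cytosolic ribosomal protein genes, a list that takes in 7 kinase genes by their symbol, none was called, with a median of 0.0094 and a highest difference of 0.48 for *rpl22l1* (limma adjusted p = 0.123). *rpl22l1* was called as higher without dim clusters (0.0798), and in a fit of only the clusters with a symbol (0.0419) together with *rps21*, at 0.45 (0.0857).

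**Figure D5:**
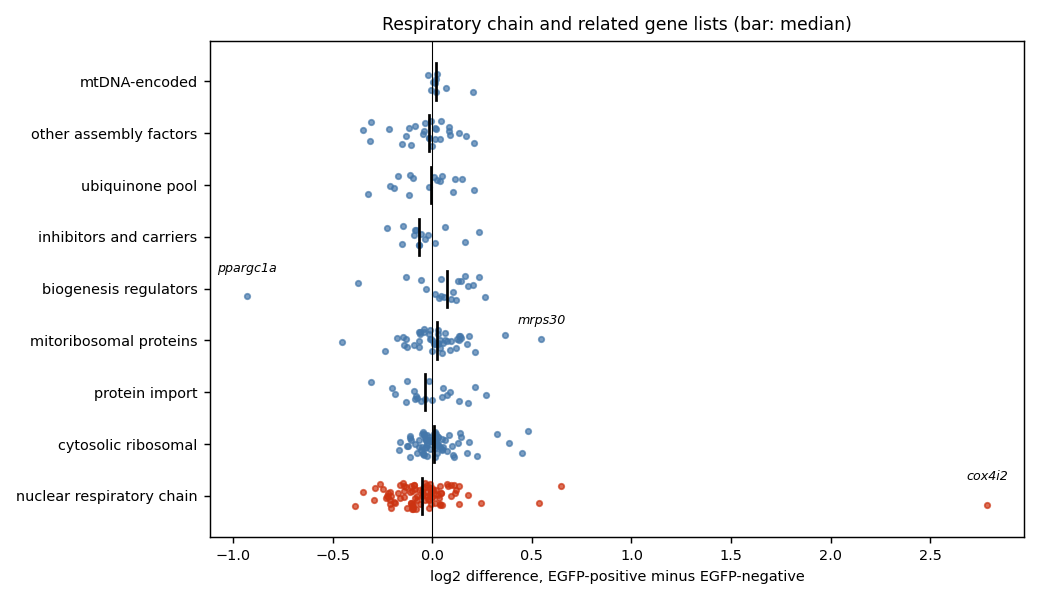
Log2 difference between fractions of the 93 nuclear respiratory chain genes (red) and of genes in 8 related lists (blue), 1 point a gene, with the median of each list as a bar. Points are spread vertically for legibility. *cox4i2* at 2.79, *ppargc1a* at −0.93 and *mrps30* at 0.55 are the genes that were called.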

How the data were processed

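RNA of 3 EGFP-positive and 3 EGFP-negative samples was measured on Affymetrix ZebGene arrays designed on Zv9. The deposited log2 values were made by the authors with MAS background correction and RMA in ExpressionConsole. The authors' comparison columns (fold changes, statistics and p-values) were not used. The deposited annotation gave symbols, positions and the other field used, the number of probes. Current symbols came from RefSeq names (GRCz12tu, names only), found for 91 of the 93 genes, 20 of them differing.

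Fractions were compared with limma 3.58.1 (lmFit, eBayes) in R 4.3.3 over all 75212 clusters, two-sided. Exact permutation tests used scipy 1.17.1, tables pandas 2.3.3 and numpy 2.4.6 in Python 3.11.15, and plots matplotlib 3.10.9. Alternatives were a stricter threshold, a replicate block, an intensity trend, other scalings and other choices of cluster. Further ones were a filter on low values, only the clusters with a symbol, and leaving out each array. In each of these the fit was run again on the values kept. An array has no read depth, so precision is set by the number of arrays. The fit was tested on simulated arrays in which 50 clusters each, all with a mean above the median level, were changed by known ratios. It found 11 of those changed 1.5-fold, 28 of those changed 2-fold, and 49 of those changed 5-fold or 7-fold. Of its 148 calls, 11 were false. In these data 2228 clusters were called higher and 1384 lower. With fewer calls, the same adjusted p asked for a smaller unadjusted p in the simulation. The shares found there are therefore not the sensitivity of the fit in these data. They also do not cover clusters under the median level, none of which was changed.

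Genes named were those called, the highest and lowest difference of each complex, members of paralogue or isoform pairs, and at most 2 at each end of each list. *ndufs4* and further genes of each complex were named after their values were seen. The genes and lists were chosen with earlier results of these data known. The siggenes method of the study was not run here. Whether a replicate number stands for the same collection in both fractions is not given in the sources used here, and no pairing was assumed.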

Additional observations from a re-analysis of the deposited data

How the results depend on the processing

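The results were recomputed under 16 alternatives, 2 of which (identical clusters counted once, and clusters with a chromosome position) were chosen after the data were seen. *cox4i2* was called under each, at 2.71 to 2.89 with limma adjusted p up to 0.00319, and *ppargc1a* too, with adjusted p up to 0.063. The number of respiratory chain genes called higher became 2, with 1 in complex I (*ndufs4*), under 2 settings. The number called lower became 1, in complex V (*atp5d*), under the same 2. These were a filter on low values, which left 87 of the 93 genes, and a fit of only the clusters with a symbol. Quantile normalization also gave 1 lower, in complex V, and a median difference of −0.119 in place of −0.051. Fewer clusters enter both the fit and its adjustment under the first 2 settings. The cause of the changed counts was not tested under any of these settings. Leaving out each array gave 1 higher and 0 lower every time, with a median of −0.099 to −0.032, while the calls over all clusters, 2228 higher and 1384 lower, ranged from 1275 to 2034 and from 874 to 1118. Without EGFP-positive replicate 2 they were 1275 and 922, and without EGFP-negative replicate 2, 1317 and 1069.

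The 75 named genes gave 1191 values under the alternatives. Of these, 1160 kept their side of the threshold and no called direction turned, 16 lost a call (8 of *mrps30*, 8 of *ttr*) and 15 gained one (*atp5d*, *ndufs4*, *ttc19*, *pdss1*, *timmdc1*, *mrps7*, *mrps14*, *rpl22l1* and *rps21*). *mrps30* also lost its call at an adjusted p under 0.05 and under quantile normalization (adjusted p = 0.105).

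With the replicate number as a block, 1 respiratory chain gene was higher and 0 lower, and 1745 and 1074 clusters were called. Among the genes named, the calls of *mrps30* (adjusted p = 0.12) and *ttr* were lost. At an unadjusted p under 0.05, the respiratory chain genes went from 2 higher and 7 lower to 3 and 3. Pairing was not assumed, because the labels do not say that a replicate number marks 1 collection. Deviations of same-numbered arrays correlated at −0.028, 0.041 and 0.094 over all clusters. Over the 149 respiratory chain clusters the same correlations were 0.151, 0.195 and 0.522. Every array there correlated best with the one of its own number. Over all clusters this did not hold. There the first EGFP-negative array correlated at −0.028 with its own number and at 0.046 with the second EGFP-positive array. The 149 clusters are not independent of each other, since several can measure 1 gene. Their pattern is thus no more than a hint that equal numbers mark 1 collection, which the labels do not state. The methods of the paper describe 3 collections, with the cells sorted into both fractions, so fractions of 1 collection are linked by design. Dim clusters limit what can be seen: *ndufs8b*, *ndufa4*, *sdhda*, *cycsa*, *cox7a1* and *sdhaf1* were not above all array medians.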
